A study of Mus musculus with 7 samples.

Results

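The genes described here are the X-linked genes that encode ribosomal proteins or a core initiation factor of translation: Rps4x, Rpl10, Rpl39, Rpl36a and Eif1ax. The rule that defines them uses name and position and no measured value, although earlier results of these data were known when they were chosen. They are 5 of the 22556 genes counted in every library (908 of which are X-linked). The question was how strongly each was repressed on the inactive X chromosome (Xi), and whether its output differed between reciprocal lines. Chromatin-associated RNA sequencing (ChrRNA-seq), which captures RNA still bound to chromatin and so weights transcription over stored mRNA, was performed on undifferentiated female (XX) mouse embryonic stem cells (mESCs), pluripotent cells in which both X chromosomes are normally active. The cells are hybrids of a 129S (Mus musculus domesticus, Dom) and a castaneus (Cast) genome. In both lines a doxycycline-inducible TetOn promoter stands in place of the endogenous Xist promoter on a single X chromosome, so that this chromosome becomes Xi and the other remains active (Xa). It sits on the Dom chromosome in iXist-ChrX-Dom (n = 4 samples) and on the Cast chromosome in iXist-ChrX-Cast (n = 3 samples).

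All 7 samples received 1 µg/mL doxycycline for 10 days, and no uninduced sample was analysed here, so no value is a change caused by Xist. Each line is 1 clone. The study calls the samples replicate experiments, without stating in the sources used here what was repeated, so a p-value measures the spread between these samples of 1 clone per line. Cells were grown on mitomycin C-inactivated mouse fibroblasts that were removed by pre-plating. Beyond Xist towards the telomere, both X chromosomes of the iXist-ChrX-Dom line carry Cast sequence, so Rpl36a and Eif1ax, which lie there, have no Dom allele in that line. For replicates 3 and 4 of iXist-ChrX-Dom the description reads d1, whereas the titles and treatment fields state 10 days. The latter was used, and the comparisons of members between the lines are also given for replicates 1 and 2 of each line alone. Ranks, neighbours and gene lists use all samples. The clone named by the files of replicates 1 and 2 of iXist-ChrX-Cast differs by 1 character from that of the labels, and the labels were followed.

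Ribosomal proteins coat and fold the ribosomal RNA, and cells need them in nearly equal numbers. Most are encoded on autosomes, so the X-linked ones must match the output of autosomal partners. On the inactive X, Xist RNA spreads in cis and genes are repressed to different extents. In humans RPS4X and EIF1AX escape this repression and have partners on the Y chromosome, whereas the mouse Rps4x and Eif1ax genes are known to be subject to it.

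Each library held 14877384 to 24309806 counted fragments, of which 44.2% to 46.4% were assigned to a parental allele. Xist stood at 5315 to 7040.0 CPM, that is, counts scaled to a common library size with TMM factors. Its allelic fragments were 99.9% Dom in each iXist-ChrX-Dom library and 5.27% to 6.003% Dom in iXist-ChrX-Cast, so the main allele was that of the labels. The source of the Dom share in iXist-ChrX-Cast was not tested. The 8 embryonic stem cell markers summed to 1175 to 1508 CPM. Sox2 was listed at 0 in every library, beside 56.1 to 116 CPM for Pou5f1. Whether this 0 is a matter of expression or of counting was not tested. The 8 fibroblast markers summed to 23.4 to 36.4 CPM, with ranges that overlapped between the lines. The 6 neural markers summed to 33.7 to 56.3 CPM in iXist-ChrX-Dom and 28.5 to 32.6 CPM in iXist-ChrX-Cast. Of these Sox1 was also listed at 0 in every library, with the same reservation as for Sox2. The part of neural markers in the differences between the lines was not tested.

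Rps4x, Rpl10 and Rpl39 lie centromeric of Xist and the others telomeric (mm10). Rps4x, the small-subunit protein closest to Xist, was counted over chrX:102184942-102188371 on the minus strand, 1.28 Mb from the Xist start. Rpl10, a large-subunit protein needed for the joining of the subunits, was counted over chrX:74270815-74273135 on the plus strand, 29.2 Mb away. Rpl39, a short protein lining the exit tunnel of the large subunit, was counted over chrX:37082519-37085184 on the minus strand, 66.4 Mb away. Telomeric of Xist lie Rpl36a, another large-subunit protein (chrX:134585653-134588062, plus strand, 31.1 Mb), and Eif1ax, the initiation factor eIF1A that helps the small subunit scan for a start codon (chrX:159372194-159385699, plus strand, 55.9 Mb).

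Counting used whole transcripts, and introns made up 65.7% of the counted span of Rpl10 and 93.1% of that of Eif1ax, the others falling between. The counted spans differ from GENCODE in places: that of Rps4x ends 1023 bases short of the nearest annotated transcript start and so omits its first exon. No other counted gene overlapped a member on its strand. Snora70 (chrX:74272484-74272620) lies inside Rpl10 and Snora69 (chrX:37082912-37083042) inside Rpl39, both small nucleolar RNA genes in the same orientation, so their fragments cannot be told apart from those of the hosts. By name alone (the gene symbol followed by -ps), GENCODE lists 6 copies of Rpl10, 4 of Rpl36a and 1 each of Rps4x and Rpl39. Copies under other names were not counted. The alignment kept unique matches, so exonic fragments identical to such a copy would be lost.

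Messenger RNAs of ribosomal proteins characteristically begin near a run of pyrimidines, through which their translation is controlled. Stretches that hold a short pyrimidine run within the first 150 bases are shown to let the members be compared. They were read on the transcribed strand of the GENCODE (vM21, mm10) transcript nearest to the counted span, with the letters CTCTT in capitals. These letters begin at base 72 of that transcript for Rps4x, 46 for Rpl10 and 33 for Rpl36a, not at its start. Whether these letters belong to the run that controls translation was not tested. This motif was chosen after the sequences had been seen.
Rps4x, chrX:102189308-102189331, minus strand: aggcgagtCTCTTtccgttcctag
Rpl10, chrX:74270849-74270872, plus strand: gggagcgtCTCTTttcctctggcg
Rpl36a, chrX:134585678-134585701, plus strand: tagcctctCTCTTtccgagctgct
The nearest transcripts of Rpl39 and Eif1ax did not hold these letters in that window. That of Rpl39 starts 218 bases from the counted start, so its window does not begin at the counted start. At least 1 coding transcript held them in 30.5% of 21877 protein-coding genes and in 39 of 75 autosomal ribosomal protein genes (52.0%). The match is a description of annotated sequence, and the start sites used in these cells were not measured.

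Total output was examined first, in all fragments regardless of allele. Rps4x was the most abundant member, with 182, 180, 226 and 213 CPM in replicates 1 to 4 of iXist-ChrX-Dom and 166, 222 and 245 CPM in replicates 1 to 3 of iXist-ChrX-Cast. The ranges of the lines overlapped, and the highest and the lowest sample both belonged to iXist-ChrX-Cast. Rpl10 varied most between replicates, with 107, 170, 81.4 and 71.0 CPM in iXist-ChrX-Dom and 128, 161 and 113 CPM in iXist-ChrX-Cast. Replicates 1 and 2 of iXist-ChrX-Dom exceeded replicates 3 and 4.

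Rpl36a stood at 89.8, 61.6, 73.4 and 73.3 CPM in iXist-ChrX-Dom and at 73.8, 95.2 and 78.8 CPM in iXist-ChrX-Cast. Rpl39 stood at 38.9, 60.5, 45.2 and 39.5 CPM and at 42.0, 49.0 and 48.4 CPM. For both genes the ranges overlapped. Eif1ax was the least variable in iXist-ChrX-Dom, with 60.6, 60.5, 58.9 and 59.2 CPM (59.8 ± 0.884, SD, n = 4), and spread more widely in iXist-ChrX-Cast, with 56.7, 65.0 and 48.2 CPM (56.6 ± 8.39, SD, n = 3). The plot of total level by sample shows these values.

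**Figure D1:**
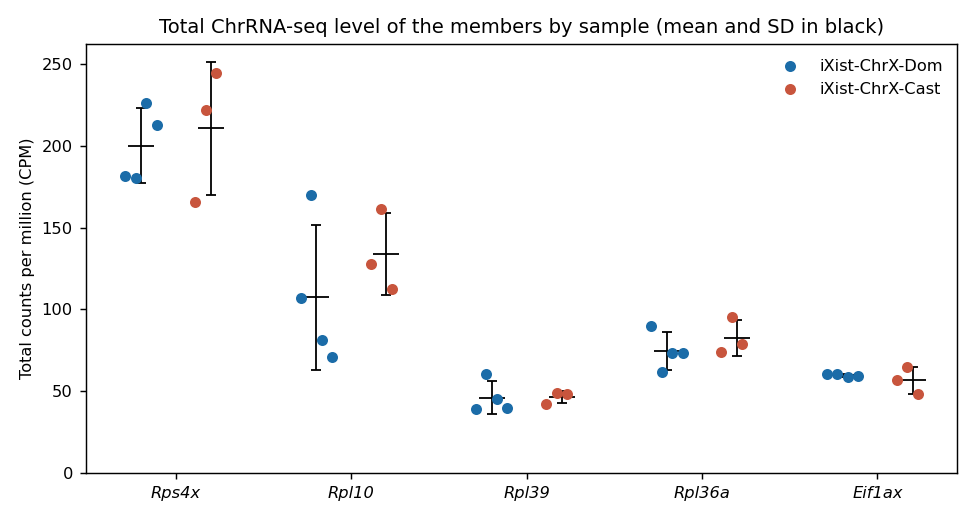
Total ChrRNA-seq level (CPM, vertical axis) of the 5 members in each sample of iXist-ChrX-Dom (blue, n = 4) and iXist-ChrX-Cast (red, n = 3), with the mean and SD of each line in black. The lines overlap for every member, and Rpl10 in iXist-ChrX-Dom ranges from 71.0 to 170 CPM.

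Levels were also taken per kilobase of counted span. This adjusts for the length of the span but not for its intron share, nested genes or fragments lost to copies. By this measure Rps4x (59.7 CPM per kb, mean of 7 samples) and Rpl10 (51.2) led. Rpl36a (32.4) and Rpl39 (17.3) followed, and Eif1ax (4.33) was last. The median over autosomal ribosomal protein genes was 36.7 CPM per kb, so that Rps4x and Rpl10 stood above it and Rpl36a and Rpl39 below. Rps4x and Rpl10 overlapped, at 48.3 to 71.4 and 30.6 to 73.3 CPM per kb across samples. Rpl36a (25.5 to 39.5) also overlapped with Rpl10, and its lowest sample stood above the highest of Rpl39 (14.6 to 22.7). Eif1ax (3.57 to 4.81) lay apart from all of them, at a level above that of 88.0% of tested genes. Its span is long and mostly intronic.

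In none of the members were the lines apart in every sample, as they were in 16% of tested genes. No member was called between the lines in total counts (edgeR quasi-likelihood test, Benjamini-Hochberg adjustment over 15186 genes), where 2.92% of all tested genes were. The log2 fold change, iXist-ChrX-Dom over iXist-ChrX-Cast, was −0.08 ± 0.14 for Rps4x (SE, edgeR adjusted p = 0.849) and −0.32 ± 0.26 for Rpl10 (edgeR adjusted p = 0.595). It was −0.15 ± 0.14 for Rpl36a, −0.01 ± 0.16 for Rpl39 and 0.08 ± 0.12 for Eif1ax. Leaving out 1 library at a time gave no call, and the sign turned for Rps4x, Rpl39 and Eif1ax. Rpl10 ran from −0.63 (without iXist-ChrX-Dom replicate 2, edgeR adjusted p = 0.124) to −0.16 (without iXist-ChrX-Dom replicate 4). Rps4x ran from −0.22 (without iXist-ChrX-Cast replicate 1) to 0.05 (without iXist-ChrX-Cast replicate 3), and Rpl36a from −0.25 (without iXist-ChrX-Dom replicate 1) to −0.03 (without iXist-ChrX-Cast replicate 2). Rpl39 ran from −0.17 (without iXist-ChrX-Dom replicate 2) to 0.06 (without iXist-ChrX-Dom replicate 1), and Eif1ax from −0.02 (without iXist-ChrX-Cast replicate 3) to 0.19 (without iXist-ChrX-Cast replicate 2). Between replicates 1 and 2 of each line alone the values were −0.10 for Rps4x, −0.06 for Rpl10, −0.16 for Rpl36a, 0.13 for Rpl39 and 0.00 for Eif1ax, none of them called.

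The silencing readout of the study is the allelic ratio, the number of Xi fragments over that of Xi and Xa fragments, which would be 0.5 if Xi and Xa were equally active and 0 if Xi were silent. The deposited ratio tables hold 246 genes for iXist-ChrX-Dom, 2 of them members (Rps4x and Rpl10), and 399 for iXist-ChrX-Cast, 3 of them members (with Eif1ax). Of all Rps4x fragments, 38.0% to 41.1% per sample could be assigned to an allele, which gave 968 to 1922 allelic fragments. Rpl10 had 462 to 919 and Eif1ax 325 to 569.

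The allelic ratios of Rps4x overlapped between the reciprocal lines. They were 0.202, 0.161, 0.205 and 0.214 in the iXist-ChrX-Dom samples (0.195 ± 0.0234, SD, n = 4) and 0.195, 0.209 and 0.192 in those of iXist-ChrX-Cast (0.199 ± 0.00916, SD, n = 3). The lowest sample, iXist-ChrX-Dom replicate 2, had a 95% Wilson interval of 0.145 to 0.179 and stood below the other 6 samples. On the log-odds scale, log2((ratio + 0.01)/(1 − ratio + 0.01)), the lines differed by −0.04 ± 0.17 (SE, limma adjusted p = 0.897 over the 235 genes in both tables). The difference was −0.19 ± 0.22 between replicates 1 and 2 alone (limma adjusted p = 0.515). It was −0.41 ± 0.18 (limma adjusted p = 0.0973) with the counts corrected for the share of Cast fragments on autosomes, 46.4% to 47.0% per sample, so the size depended on this correction.

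The allelic ratio of Rpl10 was higher where the Dom chromosome was Xi. It was 0.258, 0.271, 0.243 and 0.318 in iXist-ChrX-Dom (0.273 ± 0.0324, SD, n = 4) and 0.159, 0.168 and 0.154 in iXist-ChrX-Cast (0.160 ± 0.00712, SD, n = 3). Every iXist-ChrX-Dom sample stood above every iXist-ChrX-Cast sample, as in 44.7% of the shared genes the lines did not overlap. The log-odds differed by 0.93 ± 0.18 (SE, limma adjusted p = 0.00672). Of the 2 members tested Rpl10 alone was called, where 33.2% of the 235 genes were. The call held between replicates 1 and 2 of each line alone, at 0.84 ± 0.17 (limma adjusted p = 0.0363), that is, without the libraries described as d1. With the correction for allele bias the difference was 0.55 ± 0.18 (limma adjusted p = 0.0386). With the replicate number as a block the call was lost, at 0.82 ± 0.19 (limma adjusted p = 0.0576).

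Eif1ax could be read on both chromosomes in iXist-ChrX-Cast only. Its ratio there was 0.203, 0.215 and 0.190 (0.203 ± 0.0125, SD, n = 3), close to that of Rps4x in the same libraries. The difference of the pair, Eif1ax minus Rps4x, was 0.00783, 0.00579 and −0.00204, with both signs among the samples. The plot of allelic ratios gives all of these values beside the median of each ratio table.

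**Figure D2:**
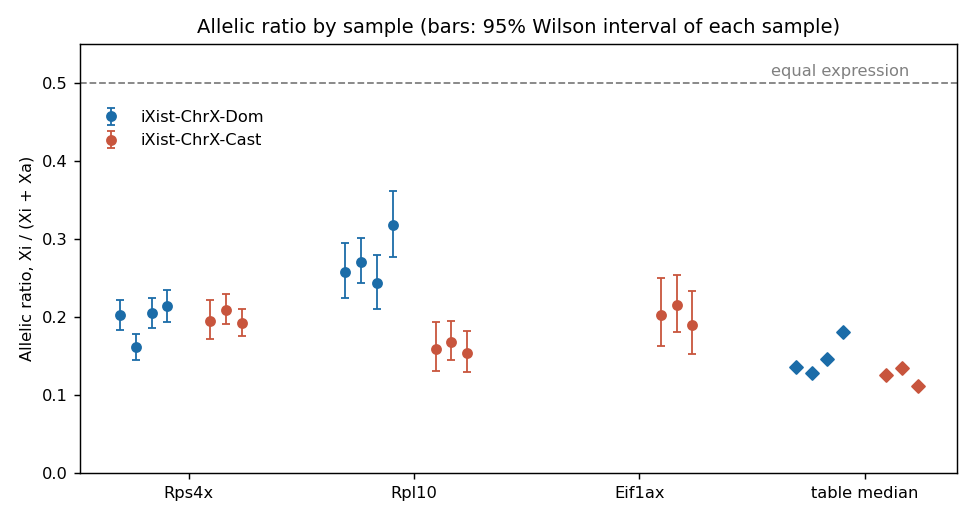
Allelic ratio (vertical axis, Xi over Xi plus Xa fragments) by sample for Rps4x, Rpl10 and Eif1ax and for the median gene of each ratio table, in iXist-ChrX-Dom (blue) and iXist-ChrX-Cast (red), with the 95% Wilson interval of each member value (counting error only). Rps4x overlaps between the lines, Rpl10 stands at 0.243 to 0.318 in iXist-ChrX-Dom and 0.154 to 0.168 in iXist-ChrX-Cast, and each member value lies above the table median of its sample.

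Within each line the members in the table were below equal expression. On the log-odds scale Rps4x stood at −1.996 ± 0.13 and Rpl10 at −1.39 ± 0.13 in iXist-ChrX-Dom (SE, limma against 0, adjusted p = 8.5e-05 and 0.000271). Both were called, where 95.1% of the 246 genes were. In iXist-ChrX-Cast Rps4x stood at −1.96 ± 0.10, Rpl10 at −2.32 ± 0.09 and Eif1ax at −1.93 ± 0.10 (SE), and the limma adjusted p was 0.000407, 0.000333 and 0.000461. All 3 were called, where 98.2% of the 399 genes were.

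The members that could be read were nevertheless among the less repressed genes. The median ratio of the whole table was 0.128 to 0.181 per sample in iXist-ChrX-Dom and 0.111 to 0.135 in iXist-ChrX-Cast, and each member exceeded the median in each sample. By the mean over samples, 33.3% of the genes in the iXist-ChrX-Dom table had a higher ratio than Rps4x and 14.2% a higher ratio than Rpl10. For iXist-ChrX-Cast, 25.1% of the genes had a higher ratio than Rps4x, 35.3% than Rpl10 and 24.3% than Eif1ax. The rank of Rpl10 thus moved most between the tables, which hold different genes.

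The order of Rpl10 and Rps4x was opposite in the lines. Rpl10 exceeded Rps4x by 0.0561, 0.110, 0.0384 and 0.105 in iXist-ChrX-Dom (0.0773 ± 0.0355, SD, n = 4). In iXist-ChrX-Cast Rpl10 minus Rps4x was −0.0360, −0.0412 and −0.0380 (−0.0384 ± 0.00260, SD, n = 3). The lines differed by 0.116 in this within-sample difference (a description, with no test). For a single gene, a difference in silencing between the lines and a difference in strength between its Dom and Cast alleles cannot be told apart, since the alleles exchange chromosomes. The mean of the 2 lines' log2 odds (without the offset), in which a constant allele effect cancels, was −2.03 for Rps4x and −1.91 for Rpl10, against a median of −2.67 over the shared genes. It corresponds to 4.09 and 3.75 Xa fragments for each Xi fragment, so that in this mean the 2 genes lay close together. A Dom-over-Cast fold can be taken from 0.5 of the difference between the lines if silencing was equal in both, which was not tested. Under that assumption the fold was 0.987 for Rps4x and 1.40 for Rpl10. Corrected for the allele bias on autosomes, these folds were 0.862 and 1.22, while the means of both lines stayed at −2.03 and −1.90.

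Counts assigned to each allele were then compared between the lines, since the same allele is Xi in one line and Xa in the other. The Dom allele of Rps4x stood at 14.7, 11.9, 18.1 and 17.2 CPM as Xi in iXist-ChrX-Dom and at 54.8, 69.9 and 77.7 CPM as Xa in iXist-ChrX-Cast. The Cast allele stood at 58.0, 61.8, 70.2 and 63.5 CPM as Xa and at 13.3, 18.5 and 18.5 CPM as Xi. Neither allele overlapped between its active and inactive states. The Dom allele was 4.38-fold lower (log2 −2.13 ± 0.16, SE, edgeR adjusted p = 5.61e-07) and the Cast allele 3.77-fold higher (log2 1.91 ± 0.15, SE, edgeR adjusted p = 1.24e-06) in iXist-ChrX-Dom than in iXist-ChrX-Cast.

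For Rpl10 the Dom allele stood at 6.57, 10.1, 7.57 and 7.50 CPM as Xi and at 30.4, 36.1 and 31.1 CPM as Xa. The Cast allele stood at 18.9, 27.2, 23.6 and 16.1 CPM as Xa and at 5.76, 7.28 and 5.66 CPM as Xi. Both alleles were apart between states, and as Xa the lowest Dom value exceeded the highest Cast value. The log2 change was −2.03 ± 0.15 for the Dom allele (4.09-fold, SE, edgeR adjusted p = 4.50e-07) and 1.78 ± 0.20 for the Cast allele (3.43-fold, SE, edgeR adjusted p = 3.96e-05). Among the genes shared by the ratio tables, 96.9% of 226 were called lower for the Dom allele and 95.7% of 230 higher for the Cast allele, so the members moved as nearly all of these genes did. In replicates 1 and 2 of each line alone, the log2 change of the Dom allele was −2.23 for Rps4x and −1.99 for Rpl10, and that of the Cast allele 1.91 and 1.81, all called (edgeR). The same samples gave −5.40 and 2.20 for the Dom and Cast alleles of Eif1ax, both called. Over all genes tested, 4.04% were called lower for the Dom allele and 8.25% higher for the Cast allele.

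The Cast allele of Eif1ax stood at 23.7, 22.5, 22.8 and 23.3 CPM in iXist-ChrX-Dom, where both X chromosomes carry it, and at 4.64, 5.40 and 3.40 CPM as Xi in iXist-ChrX-Cast (log2 2.37 ± 0.16, SE, 5.15-fold, edgeR adjusted p = 5.09e-07). The iXist-ChrX-Dom value therefore holds Xi and Xa together, so this fold is not one of Xa over Xi. The Dom allele stood at 18.2, 19.7 and 14.5 CPM in iXist-ChrX-Cast. In iXist-ChrX-Dom 7, 14, 5 and 11 fragments were assigned to Dom, 1.16% to 2.46% of its allelic fragments. Telomeric genes with at least 100 allelic fragments had a median of 2.05% to 3.19% Dom in the same libraries, so the Eif1ax share was at or below that of its region. Dom-assigned Eif1ax counts were thus 40.1-fold lower in iXist-ChrX-Dom (log2 −5.32 ± 0.24, SE). With no Dom allele there, this fold is no measure of silencing.

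**Figure D3:**
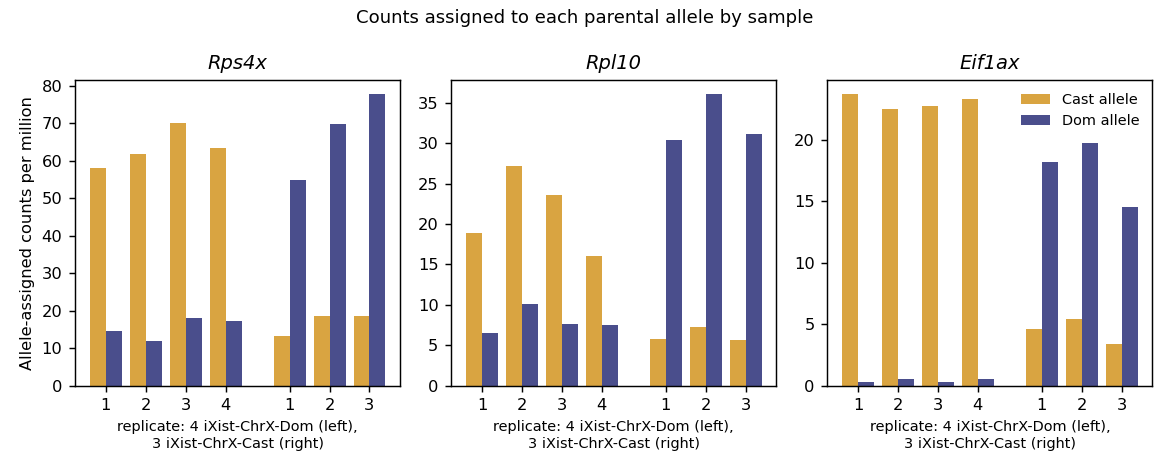
CPM assigned to the Cast allele (yellow) and the Dom allele (blue) for Rps4x, Rpl10 and Eif1ax, with 1 pair of bars per replicate and the 4 iXist-ChrX-Dom samples left of the 3 iXist-ChrX-Cast samples. The higher allele exchanges between the lines for each gene, and Dom-assigned Eif1ax counts are at most 0.569 CPM in iXist-ChrX-Dom, where its region carries no Dom allele.

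Rpl39 and Rpl36a gave no allelic readout. Not 1 of the 597 to 1489 Rpl39 fragments per sample was assigned to an allele, which allows an allelic share of up to 0.201% to 0.503% (3 fragments of the total). Rpl36a had 8, 5, 10 and 2 allelic fragments in iXist-ChrX-Dom and 7, 9 and 6 in iXist-ChrX-Cast, 0.139% to 0.726% of its fragments. All but 1 were assigned to Dom. In iXist-ChrX-Dom the gene has no Dom allele, and yet as many fragments were assigned to Dom there as in iXist-ChrX-Cast, so these few fragments do not report the chromosome of origin. For both genes the level from Xi was not measurable, and their total counts join Xi and Xa.

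The share of Rpl10 fragments that could be assigned to an allele differed between libraries of the same line. It was 23.8%, 21.9%, 38.2% and 33.2% in iXist-ChrX-Dom and 28.3%, 26.9% and 32.6% in iXist-ChrX-Cast. Replicates 1 and 2 stood lower than replicates 3 and 4 in the first line, and replicates 1 and 2 lower than replicate 3 in the other. Rps4x and Eif1ax showed no such spread, with 38.0% to 41.1% and 37.2% to 40.3%.

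Unassigned Rpl10 fragments moved more than assigned ones. They stood at 81.7, 133, 50.3 and 47.5 CPM in iXist-ChrX-Dom and at 91.7, 118 and 75.9 CPM in iXist-ChrX-Cast. Assigned fragments stood at 25.5, 37.3, 31.1 and 23.6 CPM and at 36.2, 43.3 and 36.7 CPM. The excess in replicates 1 and 2 thus lay in fragments without an assigned polymorphism. Snora70 takes up 5.90% of the counted span of Rpl10, and its part in the unassigned fragments was not tested. The allelic ratio of Rpl10 does not use these fragments, whereas its total count does.

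**Figure D4:**
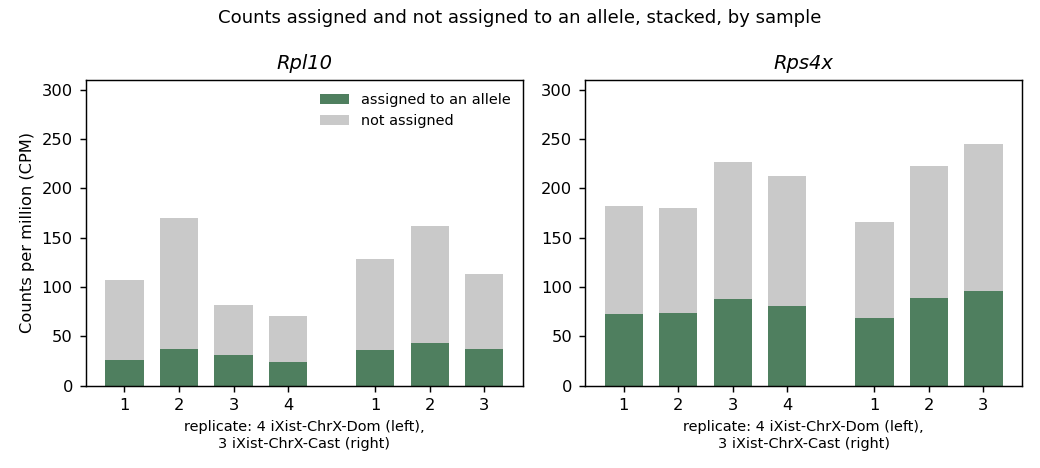
Fragments assigned to an allele (green) and not assigned (grey), stacked, in CPM for Rpl10 (left) and Rps4x (right), by replicate of iXist-ChrX-Dom (4 bars) and iXist-ChrX-Cast (3 bars). Unassigned Rpl10 fragments range from 47.5 to 133 CPM in iXist-ChrX-Dom while the assigned ones range from 23.6 to 37.3 CPM.

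The nearest table genes on each side were set beside the members, with no test. In iXist-ChrX-Dom the nearest table genes of Rps4x were Ercc6l (0.229 ± 0.0577, SD, n = 4) and Hdac8 (0.154 ± 0.0452), on either side of its 0.195. In iXist-ChrX-Cast they stood at 0.166 ± 0.0300 and 0.0996 ± 0.00712 (SD, n = 3), with Rps4x above both at 0.199. The neighbours of Rpl10 were Emd and Dnase1l1, the latter starting 2.401 kb from the Rpl10 start. Emd stood at 0.147 ± 0.0879 (0.0333 to 0.237) in iXist-ChrX-Dom and, with Cast as Xi, at 0.211 ± 0.0488 (0.161 to 0.258). The order of its means was opposite to that of Rpl10, but its samples overlapped between the lines. Dnase1l1 ranged from 0.2 to 0.7 in iXist-ChrX-Dom (SD 0.219) and from 0 to 0.214 in iXist-ChrX-Cast (SD 0.124). How much of the spread of Emd and Dnase1l1 is counting error was not tested. Around Eif1ax, Rps6ka3 stood at 0.227 ± 0.0169 and Map7d2 at 0.123 ± 0.00571 (SD, n = 3), on either side of its 0.203.

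The genes whose ratios were most like a member over the 7 samples were found by the smallest Euclidean distance of log-odds among 234 other shared genes. For Rps4x these were Naa10 (distance 0.249), Usp9x (0.427) and Zfp182 (0.500), against a median distance of 2.97. Naa10, the catalytic subunit of the main N-terminal acetyltransferase acting on nascent chains, stood at 0.196 in iXist-ChrX-Dom and, with Cast as Xi, at 0.195. For Rpl10 they were Vbp1 (0.686), 1810030O07Rik (0.723) and Xk (0.783), against a median of 3.10. Vbp1, a subunit of the prefoldin chaperone, stood at 0.256 and 0.192. These are descriptions over 7 samples of 2 clones.

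Correlations between members in total level had both signs. Among the 10 pairs, Pearson r of log2 CPM over the 7 samples ran from −0.45 (Rpl39 with Rpl36a) to 0.70 (Rpl10 with Rpl39). The pair with the highest value is the pair that hosts a small nucleolar RNA gene each, and a link between these facts was not tested. The genes most like each member by this measure, among 15185, were Atp6ap1 for Rps4x (r = 0.99), Ubr7 for Rpl10 (0.99), Mapk8ip2 for Rpl39 (0.97), Psmd10 for Rpl36a (0.98) and Naca for Eif1ax (0.96). Atp6ap1 and Psmd10 are X-linked. With 7 points from libraries of unequal depth and so many genes compared, high values arise readily, and they are given as descriptions.

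Each member has an autosomal relative, several of them retrocopies used mainly in the testis. Rpl10l stood at 2.75 to 4.99 CPM, with 25.3 to 51.7 Rpl10 counts for each of its own. Rpl39l stood at 3.66 to 8.01 CPM and Rpl36al at 9.94 to 14.7 CPM, below their X-linked partners by 5.24 to 16.5 and 5.21 to 7.66 times in counts. The spliced transcripts of member and relative were identical over 83.7% of 683 aligned bases for Rpl10, 65.8% of 527 for Rpl39 and 82.5% of 399 for Rpl36a. Eif1a was the exception in order, at 324 to 436 CPM, and had 0.136 to 0.183 Eif1ax counts for each of its own. Part of these fragments could be misplaced between relatives in exons.

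Rps4l, the relative of Rps4x on chromosome 6, stood at 13.6 to 27.4 CPM and was identical over 77.8% of 935 bases. All of its allelic fragments, 97 to 259 per sample, were assigned to Dom and 0 to Cast in every library of either line. None of the 5 relatives was called between the lines in total counts. Rpl39l was nearest to a call, at −0.67 ± 0.19 on the log2 scale (SE, edgeR adjusted p = 0.0938).

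Other X-linked genes of translation and ribosome assembly were read for comparison, 11 in all. Of these 7 were in the iXist-ChrX-Dom table, 10 in the iXist-ChrX-Cast table and 6 in both. In the 6, 1 rose and 3 fell in iXist-ChrX-Dom relative to iXist-ChrX-Cast (limma), where 19.1% and 14% of the shared genes did. Utp14a, a component of small-subunit processing, was higher in iXist-ChrX-Dom at 0.447 ± 0.0226 against 0.170 ± 0.00653 (log-odds 1.92 ± 0.15, SE, limma adjusted p = 0.000128), the direction of Rpl10. Las1l, which takes part in processing of the large-subunit RNA, was lower at 0.0669 ± 0.0126 against 0.485 ± 0.0429 (log-odds −3.54 ± 0.20, SE). Eif2s3x, a subunit of the factor that delivers the initiator tRNA and a known escape gene, stood at 0.290 ± 0.0355 against 0.462 ± 0.0276 (log-odds −1.05 ± 0.19, SE). Dkc1, the pseudouridine synthase of ribosomal RNA, stood at 0.123 ± 0.0291 against 0.226 ± 0.0305 (log-odds −1.03 ± 0.25, SE).

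Among these genes the means ran from 0.0395 (Mcts1, samples from 0 to 0.158, SD 0.0789) to 0.447 (Utp14a) in iXist-ChrX-Dom. Those of iXist-ChrX-Cast ran from 0.0453 (Gnl3l) to 0.485 (Las1l). The members, at 0.160 to 0.273, thus lay inside this range in both lines. In total counts 0 of the 11 were called by edgeR, where 11 of 542 tested X-linked genes were called higher and 33 lower. An unadjusted p under 0.05 was found for 3 of the 11 and for 170 of the 542. The median log2 fold change was −0.23, beside −0.08 for the members, −0.12 for all tested X-linked genes and 0.00 for all tested genes.

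Autosomal partners of the members moved little between the lines. Of the 71 ribosomal protein genes tested, 1 fell and 0 rose (edgeR), where 1.72% and 1.2% of all genes did. An unadjusted p under 0.05 was found for 8 of the 71, beside 2638 of all 15186 genes tested. The median log2 fold change was −0.05. Rpl21 fell by 0.66 on the log2 scale (SE 0.14, edgeR adjusted p = 0.0404). Next lowest was Rpl5 at −0.52 ± 0.13 (SE, edgeR adjusted p = 0.0655), and highest were Rpl38 at 0.46 ± 0.13 and Rpl13 at 0.37 ± 0.14, neither of them called. The 5 genes of this list on chromosome 5 all lay below zero, with a median of −0.44, and the 3 on chromosome 8 above, with a median of 0.33.

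Of the 44 initiation, elongation and termination factors tested, 2 fell and 0 rose (edgeR), with a median of −0.11. They were Eif2b4 (−0.61 ± 0.14, SE, edgeR adjusted p = 0.0459) and Eif2b1 (−0.56 ± 0.13, SE, edgeR adjusted p = 0.0487), subunits of the exchange factor eIF2B, and both lie on chromosome 5. Their allele-assigned counts are given as well, with no test of one allele against the other. The log2 difference of Eif2b4 stood at −0.96 for the Cast and −0.07 for the Dom allele, Eif2b1 at −0.86 and 0.13, and Rpl21 at −0.87 and −0.13 (edgeR, the Cast values called and the Dom values not). Rpl13 on chromosome 8 stood at 0.75 for the Cast allele, called, and −0.18 for the Dom allele, not called. Chromosomes 1, 5, 8, 12 and 14 were left out in an alternative because earlier results of these data had shown uneven allelic balance there. Rpl21, Eif2b4 and Eif2b1 lie on chromosome 5 and were thus removed, so their calls could not recur there. No remaining gene of either list was called by edgeR (56 and 33 tested), where 0.587% of 11423 genes were. In the fit to all genes, 2 and 1 of these remaining genes had an unadjusted p under 0.05, and their medians were −0.02 and −0.09. Over the whole factor list, chromosome 8 included, the highest values were those of Eif1 (0.30 ± 0.14) and Abce1 (0.25 ± 0.12).

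**Figure D5:**
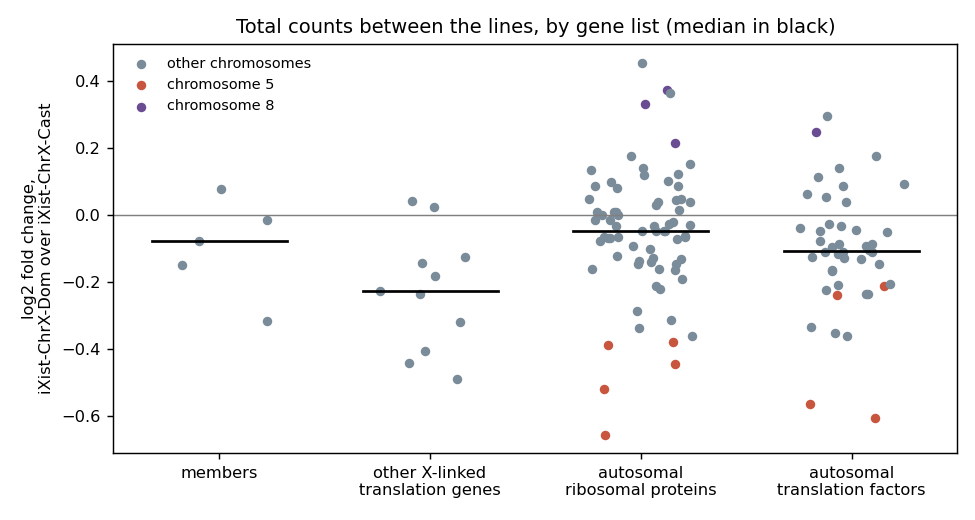
log2 fold change in total counts (vertical axis, iXist-ChrX-Dom over iXist-ChrX-Cast) of each tested gene in 4 lists, with chromosome 5 in red, chromosome 8 in purple, others in grey and the median of each list as a black line. The medians are −0.08 for the members, −0.23 for the other X-linked translation genes, −0.05 for the autosomal ribosomal proteins and −0.11 for the autosomal translation factors, and the lowest autosomal values belong to chromosome 5.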

How the data were processed

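ChrRNA-seq libraries had been prepared by the authors with a stranded total RNA kit. Ribosomal RNA reads were removed with Bowtie2 2.3.2, the rest aligned uniquely with STAR 2.4.2a to mm10 with strain polymorphisms masked, and fragments assigned to a parental genome by SNPsplit. Per the file headers, the deposited counts are fragment counts per gene from featureCounts 1.5.2, over whole transcripts on the reverse strand, for all, Cast-assigned and Dom-assigned fragments. The deposited ratio tables hold the fraction of allelic fragments from Xi for a filtered set of X-linked genes, and every value equalled that of the counts.

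Members and gene lists were chosen with earlier results of these data known, although the rule for the members uses no measured value. Samples were grouped by line from the titles. Counts were fitted over all genes in R 4.3.3 with edgeR 4.0.16 (genes kept by filterByExpr, TMM factors of the total counts, quasi-likelihood test, two-sided) and ratios with limma 3.58.1 (log-odds, offset 0.01), with Benjamini-Hochberg adjustment over all genes tested and a threshold of 0.05. CPM used the same factors, and correlations log2 CPM with a prior count of 2. Named genes were the members, their autosomal relatives, the nearest table gene on each side, the genes most like a member, the called and extreme genes of 11 other X-linked translation genes, and the 2 highest and 2 lowest of the autosomal lists together with the called ones. Intervals are 95% Wilson intervals, and floors are 3 fragments. Fragments carried no molecular identifiers, so both cover counting error only. Transcript sequences came from GENCODE vM21, and relatives were compared by local alignment in Biopython 1.88.

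Same-numbered samples of the lines deviated together in log2 CPM (Pearson r of deviations from the line means 0.33, 0.28 and 0.47 for replicates 1, 2 and 3), but replicates 1 and 2 also deviated with each other's number. The replicate number was therefore also used as a block. No 2 replicates agreed within sampling noise (chi-square per gene 6.51 to 39.9). It was 14.8 between replicates 1 and 2 of iXist-ChrX-Dom, 6.51 between its replicates 3 and 4, and 9.71 between replicates 1 and 2 of iXist-ChrX-Cast. Replicates 1 and 2 differed from the later replicates of their line by 23.6 to 39.9, over all genes and not Rpl10 alone. On simulated counts edgeR found 82.0% of 200 genes changed by 1 log2 unit among 15165 for total counts, with 3.53% of calls false, and limma found 70.0% of 40 ratios changed by 1.5 units among 235. The simulated total counts had the same spread setting for all genes and no difference between replicates 1 and 2 and the rest. Their recovery therefore need not hold for a gene as variable as Rpl10. Alternatives were DESeq2 1.42.0, RLE scaling, no filter, the block, the sample set (replicates 1 and 2 against the rest) as a covariate, replicates 1 and 2 alone, leaving out each library, chromosome subsets, other offsets, untransformed ratios, edgeR on allelic counts and correction for allele bias.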

Additional observations from a re-analysis of the deposited data

Results flagged for a closer look

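The allelic ratio of Rpl10 differed between the lines under the same contrast of Xi with Xa, by 0.93 on the log-odds scale (limma test of the difference, adjusted p = 0.00672). All 4 iXist-ChrX-Dom samples, at 0.243 to 0.318, stood above all 3 iXist-ChrX-Cast samples, at 0.154 to 0.168.

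Among 19 sets of 4 iXist-ChrX-Dom values examined for a sample far from the others, the Cast-assigned level of Rpl36a stood out, with a gap of 1 times the whole range. It rests on 1 fragment in replicate 1 against 0 in the other 3. Chance alone would single out about 1 in 20 sets of normally distributed values. That rate does not hold here, since the gap equals the whole range whenever a single library holds any fragment.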

How the results depend on the processing

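With the replicate block, 0 of the 2 members tested for the allelic ratio were called, against 1 in the fit reported: the Rpl10 difference was 0.82 ± 0.19 and missed the threshold (limma adjusted p = 0.0576). That fit leaves iXist-ChrX-Dom replicate 4 without a partner, and without that library and the block the same difference was called (limma adjusted p = 0.0106). Log-odds of same-numbered samples did not deviate together (r −0.12, −0.10 and −0.11). In its other 14 alternatives the Rpl10 difference was called in each, at 0.55 to 0.999, or 0.11 on untransformed ratios. The block changed no other call of a member. Rps4x was called in none of the 15, from −0.41 with the allele bias correction (limma adjusted p = 0.0973) to 0.07.

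No member was called in total counts under any of 14 alternatives, and the calls of allele-assigned counts and of Xi against Xa were kept in each of theirs. The number of genes called over the whole table was less stable. For total counts it was 443, against 1098 with DESeq2, 1794 with the block, 2398 with the sample set, 1685 in replicates 1 and 2, 67 without chromosomes 1, 5, 8, 12 and 14, and 18 (without iXist-ChrX-Cast replicate 2) to 1206 (without iXist-ChrX-Cast replicate 3) when leaving out a library. For Dom-assigned counts it was 613, against 1216, 1426 and 1074 with the block, the sample set and replicates 1 and 2, and 996 without iXist-ChrX-Cast replicate 3. For Cast-assigned counts it was 1781, against 2789 with the sample set. The cause was not tested. Rpl10 total levels were limited by the spread between libraries and Rpl39 and Rpl36a by the lack of allelic fragments.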
